A study of Homo sapiens with 10 samples.

Results

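The regions described here are gene-distant binding sites of the MYCN-amplified neuroblastoma line Kelly, of the adrenergic type, where LSD1 was found by ChIP-seq and induced RCOR2 was not. They were chosen from the deposited list of RCOR2-low regions as those farther than 2 kb from both ends of every RefSeq protein-coding gene, with no peak in either library of induced RCOR2 and with a peak in both LSD1 libraries. This selected 5738 members of the 24637 RCOR2-low regions, of which 19281 were distal by the same distance. The absence of RCOR2 and the presence of LSD1 are therefore given by the choice and are no result.

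The series holds 10 ChIP-seq libraries in 5 groups of 2. LSD1 was pulled down from a Kelly derivative with a doxycycline-switched shRNA against RUNX1T1, kept without the drug. RCOR3 and RCOR1 were precipitated from untreated Kelly cells, each with an antibody to the protein itself. RCOR2 carried a FLAG tag and was pulled down through it after 2 µg/mL doxycycline for 48 h, or from the same kind of cells without doxycycline (the uninduced FLAG libraries, which show what the antibody finds with the switch off). All come from 1 cell line, the LSD1 libraries from another derivative than the rest, and the RCOR2 signal is that of a switched-on tagged protein, so the native RCOR2 was not measured.

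The 3 CoREST proteins RCOR1, RCOR2 and RCOR3 are scaffolds. Each can tie LSD1 (gene KDM1A), which removes methyl groups from the tail of histone H3, to the nucleosome, and they also bind the histone deacetylases HDAC1 and HDAC2. In nerve cell precursors LSD1 and CoREST are known for holding genes down through partners such as REST and SNAG-domain factors, and LSD1 is also found at enhancers far from gene starts.

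Few members overlapped an annotated start of transcription. A RefSeq promoter window, which runs from 250 bases before to 50 after a start, was overlapped by 58 (1.01%). Of these, 21 overlapped the window of a protein-coding gene, at a start inside the gene's outer bounds, and 37 that of a long noncoding RNA. The rule left out every region within 2 kb of a protein-coding gene end, so a low share is partly given by the choice. For comparison, among classes that also differ in width, 3.32% of distal RCOR2-low regions with RCOR2 and LSD1 overlapped such a window. So did 9.72% of those with RCOR2 and no LSD1 and 1.63% of those lacking both. Sequences could be read for these windows alone. A few of the windows that lie wholly inside a member are shown, strand as the gene (all on the plus strand of GRCh38.p14), with the matched motifs in capitals.
The windows of HTR3B (a subunit of the ionotropic serotonin receptor, chr11:113904546-113904845), ZC3H12C (a zinc finger protein of the family of RNA-cleaving regnases, chr11:110130750-110131049) and ELAVL4 (the neuronal RNA-binding protein HuD, chr1:50105981-50106280) are shown because their members had peaks in all libraries of LSD1, RCOR3 and RCOR1.
HTR3B: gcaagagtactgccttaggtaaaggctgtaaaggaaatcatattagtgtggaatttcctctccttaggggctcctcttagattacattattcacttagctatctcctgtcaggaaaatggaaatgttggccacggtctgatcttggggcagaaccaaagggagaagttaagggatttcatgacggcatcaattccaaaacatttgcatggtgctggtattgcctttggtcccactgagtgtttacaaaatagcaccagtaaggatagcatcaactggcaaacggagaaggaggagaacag
ZC3H12C: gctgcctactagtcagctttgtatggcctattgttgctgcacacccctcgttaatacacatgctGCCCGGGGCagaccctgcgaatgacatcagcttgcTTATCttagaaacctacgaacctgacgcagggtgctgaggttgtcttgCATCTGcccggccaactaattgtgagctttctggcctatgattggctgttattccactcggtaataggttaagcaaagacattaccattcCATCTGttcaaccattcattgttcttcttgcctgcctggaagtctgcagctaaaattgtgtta
ELAVL4: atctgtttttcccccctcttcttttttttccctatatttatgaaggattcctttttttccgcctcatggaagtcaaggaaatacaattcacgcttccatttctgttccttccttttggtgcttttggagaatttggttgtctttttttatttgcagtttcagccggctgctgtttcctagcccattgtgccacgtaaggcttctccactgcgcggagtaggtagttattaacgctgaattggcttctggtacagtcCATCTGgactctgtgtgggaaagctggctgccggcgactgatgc
The windows of RAPGEF4 (a cAMP-activated exchange factor for Rap proteins, chr2:172859892-172860191) and SLC1A3 (a glutamate transporter of glia, chr5:36606704-36607003) are shown for LSD1 without a full set of RCOR3 peaks. RCOR3 had a peak in replicate 2 alone at RAPGEF4 and none at SLC1A3.
RAPGEF4: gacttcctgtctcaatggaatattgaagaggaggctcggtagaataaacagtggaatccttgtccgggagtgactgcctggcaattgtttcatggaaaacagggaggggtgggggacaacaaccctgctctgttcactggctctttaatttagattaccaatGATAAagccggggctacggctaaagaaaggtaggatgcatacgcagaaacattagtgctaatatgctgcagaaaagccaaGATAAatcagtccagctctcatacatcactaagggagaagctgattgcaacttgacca
SLC1A3: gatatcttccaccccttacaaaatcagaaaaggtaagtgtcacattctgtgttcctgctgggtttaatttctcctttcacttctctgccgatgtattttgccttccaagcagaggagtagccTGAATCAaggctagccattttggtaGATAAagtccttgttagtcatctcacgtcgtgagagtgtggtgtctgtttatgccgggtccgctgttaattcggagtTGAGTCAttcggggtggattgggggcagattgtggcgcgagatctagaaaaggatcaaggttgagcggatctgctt

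The HTR3B member had LSD1 fold enrichments of 10.1 and 21.3 in replicates 1 and 2, RCOR3 of 9.81 and 6.94 and RCOR1 of 14.8 and 5.8. The ELAVL4 member was weaker, with LSD1 at 7.16 and 4.7, RCOR3 at 4.45 and 4.08 and RCOR1 at 9.25 and 5.05. The SLC1A3 member had LSD1 at 6.34 and 4.4 and RCOR1 at 5.25 in replicate 1, with no peak of RCOR3 or of RCOR1 replicate 2. The RAPGEF4 member had LSD1 at 8.79 and 6.78, RCOR3 at 5.66 in replicate 2 alone and RCOR1 at 6.32 in replicate 1 alone.

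Over the 31 windows that share at least 250 bp with a member, the median GC content was 46.7%, against 58.7% over all 34961 windows of the table, and the median number of CpG pairs was 4 against 14. Motifs were searched as exact letters on both strands, with N for any base, and matches of different motifs may overlap. The E-box CATCTG, bound by HAND2 and TCF dimers, was found in 13 of the 31 (41.9%), against 14.7% of all windows and 20.9% of the 16237 windows in the same GC range. TGANTCA, the letters of the AP-1 site, was found in 8 (25.8%), against 7.68% and 11.8% of those sets. TAATTA, the core of homeodomain sites, was found in 6 (19.4%), against 4.85% and 7.77%. For GATAA, the core of GATA sites, 12 windows (38.7%) matched, against 22.7% of all windows and 35.7% in the same GC range. CAGCTG was found in 8 (25.8%), against 18% and 18.1%. Matches were fewer in members for CAGGTG, the E-box of SNAI and ZEB factors (4 windows, 12.9%, against 20.6% and 19.7%). The same held for CACGTG, the E-box of MYC factors (1 window, 3.23%, against 7.27% and 4.98%), and GCCNNNGGC, the AP-2 letters (2 windows, 6.45%, against 23.2% and 8.69%). These counts are few and describe 31 windows, not the 5738 members.

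The libraries held 19392 and 19667 LSD1 peaks, 13644 and 27786 RCOR3 peaks and 49250 and 18297 RCOR1 peaks in replicates 1 and 2. Induced FLAG gave 75643 and 59726 peaks and uninduced FLAG 10253 and 14958. Each peak carries the fold enrichment and q-value of the authors' peak caller, and every list ends at a q-value of 0.05. Intervals below are Wilson 95% intervals over regions and cover counting error only.

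RCOR3 was found at many members, and uninduced FLAG at almost none. RCOR3 peaks overlapped 2447 members in replicate 1 (42.6%, interval 41.4 to 43.9%) and 1786 in replicate 2 (31.1%, 29.9 to 32.3%), and 1332 (23.2%) had a peak in both. Among all distal RCOR2-low regions, members included, these shares were 35.4%, 29.9% and 22.1%, so that the members' shares lay near that background in replicate 2 and in both libraries together. Uninduced FLAG peaks overlapped 0 members in replicate 1 and 24 in replicate 2 (0.418%), against 4.68% of all distal RCOR2-low regions with a peak in at least 1 of the libraries. The mean share was 36.9 ± 8.15% for RCOR3 and 0.209 ± 0.296% for uninduced FLAG (SD, n = 2 libraries each), a difference of 36.7 percentage points. An exact two-sided permutation test of the 4 libraries gave p = 0.333, the smallest such a design allows. The rule removed every region with an induced FLAG peak, found with the same antibody, so the uninduced share is not independent of the choice.

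The RCOR1 part of the members was mostly set by how the list was made. The bounds of 5613 members (97.8%) were exactly those of an RCOR1 replicate 1 peak, and no other library gave the bounds of more than 20. RCOR1 replicate 1 peaks thus covered 5720 members (99.7%), which is given as a description. RCOR1 replicate 2 peaks covered 1743 (30.4%, 29.2 to 31.6%), against 31.1% of all distal RCOR2-low regions. Both RCOR1 libraries covered 1725 members (30.1%), and 3995 (69.6%) rested on replicate 1 alone.

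**Figure D1:**
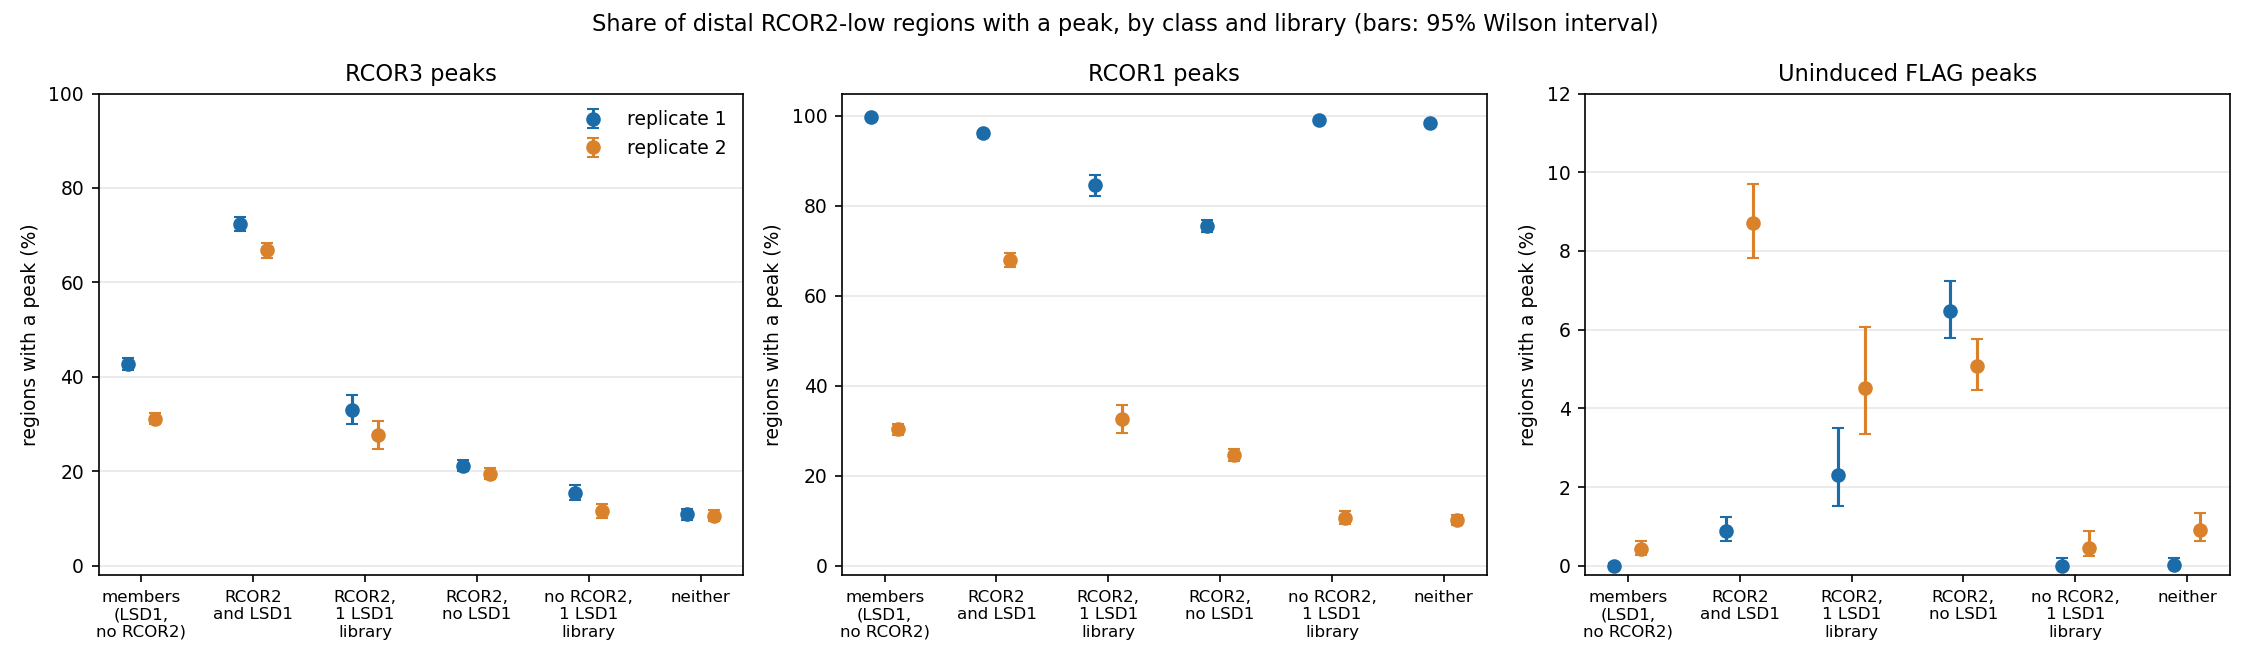
Share of regions (y axis, %) with an RCOR3, RCOR1 or uninduced FLAG peak in each class of distal RCOR2-low regions, for each library, with 95% Wilson intervals; the uninduced FLAG panel has its own scale. Members, at 42.6 and 31.1% for RCOR3, lie below the regions with RCOR2 and LSD1 and above the other 4 classes in each replicate.

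Set beside the classes that the same list holds, the members stood between extremes. RCOR3 covered 42.6 and 31.1% of members, against 72.4 and 66.8% of the 3521 distal regions with both RCOR2 and LSD1. The difference was -29.7 percentage points in replicate 1 and -35.7 in replicate 2 (exact two-sided sign-flip permutation test, p = 0.5, the smallest that 2 libraries allow). Against the 2816 distal regions lacking both, where RCOR3 covered 10.9 and 10.6%, the members were higher by 31.7 and 20.5 percentage points (same exact test, p = 0.5). The 4373 regions with RCOR2 and without LSD1 had RCOR3 shares of 21.2 and 19.5%. The 1924 regions without RCOR2 where a single LSD1 library had a peak had 15.5 and 11.5%. The 909 regions with RCOR2 and a peak in a single LSD1 library had 33.1 and 27.6%, so that their replicate 1 share lay within the range of the members' replicates. In each replicate the order of these 6 classes by RCOR3 share was the same, with the members second. With equal numbers of top peaks taken from each library, the mean difference from the regions with RCOR2 and LSD1 was -50.1 percentage points. That setting also redraws the classes, so it does not compare the same regions. RCOR1 replicate 2, which did not give the bounds of most regions, covered 30.4% of members, 68.1% of the regions with RCOR2 and LSD1 and 10.1% of those lacking both. There the regions with RCOR2 and a single LSD1 library, at 32.6%, stood slightly above the members.

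Uninduced FLAG covered 0 and 0.418% of members, against 0.88 and 8.72% of the regions with RCOR2 and LSD1. The difference was -0.88 and -8.3 percentage points (exact two-sided sign-flip permutation test, p = 0.5), so that its size rested on replicate 2. Induced peaks of the same antibody define both classes, so its direction is partly set by the choice, and the test cannot decide it. With equal numbers of top peaks from each library, which also redraws the classes, the difference averaged -21.7. Regions lacking both RCOR2 and LSD1 had 0.0355 and 0.923%.

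LSD1 at the members was of middle height. The median fold enrichment of the LSD1 peak was 6.61 in replicate 1 and 7.42 in replicate 2, with 10% of members above 11.2 and 14.2 and the highest at 31.7 and 54.4. Regions with RCOR2 and LSD1 had medians of 7.7 and 8.58, so that the members' medians were 0.858 and 0.866 times theirs. The 2447 distal LSD1 regions outside both RCOR2 lists had medians of 5.25 and 5.49, and the members' medians were 1.26 and 1.35 times those. On the log2 scale the mean ratio to the regions with RCOR2 and LSD1 was -0.21, and it was -0.12 without LSD1 replicate 2 and -0.46 among peaks above each library's median fold enrichment. These alternatives also redraw the classes. Both differences had the same direction in both libraries (exact two-sided sign-flip permutation test, p = 0.5 each). All 3 of these classes required a peak in both LSD1 libraries. The regions without RCOR2 and with a single LSD1 library had medians of 4.8 and 5.17 where the peak was present.

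**Figure D2:**
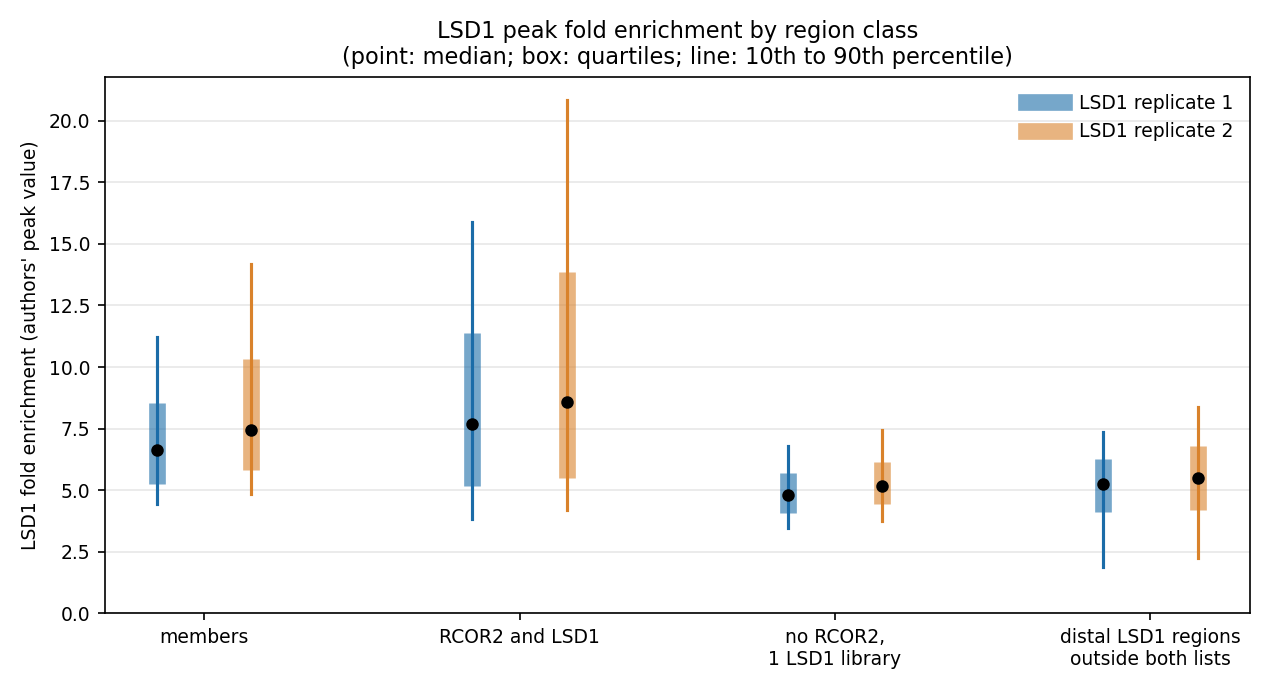
LSD1 fold enrichment of the overlapping peak (y axis, the authors' value, linear) by class and replicate, with medians, quartiles and the 10th to 90th percentile range. The members' medians of 6.61 and 7.42 lie between those of the regions with RCOR2 and LSD1 and those of distal LSD1 regions outside both lists, and the ranges overlap.

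The members also differed in shape and place. Their median width was 456 bp, against 820 bp for the regions with RCOR2 and LSD1 and 296 bp for those lacking both. The median distance to the nearest protein-coding gene end was 66.6 kb. It was 51 kb for regions with RCOR2 and LSD1, 17 kb for those with RCOR2 and no LSD1 and 25.8 kb for those lacking both. Regions without RCOR2 and with a single LSD1 library had a median of 50.1 kb. The nearest gene end was over 100 kb away for 2201 members (38.4%). This held for 26% of all distal RCOR2-low regions and 31.4% of those with RCOR2 and LSD1. The centre lay inside a protein-coding gene for 2760 members (48.1%, 46.8 to 49.4%), against 51% of all distal RCOR2-low regions. That share was 48.3% for regions with RCOR2 and LSD1, so it did not set the members apart from those. A long noncoding RNA gene ended or began within 2 kb of 389 members (6.78%), against 9.78% of all distal regions. By chromosome, members made up between 3.3% of the distal regions (23 of 696 on chromosome 19) and 45.2% (300 of 664 on chromosome 4).

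Induced RCOR2 was absent from the members by choice, and the distance to its nearest peak varied widely. The median distance to the nearest peak of either induced library was 14.5 kb. It was under 2 kb for 722 members (12.6%) and over 50 kb for 1025 (17.9%). This distance was not computed for other regions, so it describes the members and does not set them apart. The 227 members with such a peak within 500 bp had LSD1 medians of 6.3 and 6.78 and RCOR3 shares of 34.8 and 28.6%. The deposited list runs from regions where induced RCOR2 peaks were frequent (83% of the first of 5 equal stretches of the list) to those where they were rare (11.4% of the last stretch), an order that the sources used here do not explain. Members made up 2.31% of the distal regions in the first stretch and 60% in the last. Since the rule takes only regions without an induced RCOR2 peak, this rise is largely given by the choice.

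Values close to the limits of the rule follow. At the gene-end limit, the 147 members 2 to 4 kb from a gene end had LSD1 medians of 6.15 and 6.72 and RCOR3 shares of 42.9 and 32.7%. The 199 regions that met every other condition within 2 kb of a gene end had LSD1 medians of 5.79 and 6.54 and RCOR3 shares of 36.7 and 27.1%. Across the other limits the RCOR3 share differed more. On the RCOR2 side, the 1850 regions where a single induced library had a peak had RCOR3 shares of 61.2 and 53.8%, and the 1671 with both had 84.8 and 81.2%.

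Among the members, those with RCOR3 had higher LSD1 and RCOR1 peaks. The 1332 members with RCOR3 in both libraries had LSD1 medians of 8.79 and 11.5, an RCOR1 replicate 1 median of 10.1, an RCOR1 replicate 2 peak in 74.4% and a median width of 718.5 bp. The 2837 members without RCOR3 had LSD1 medians of 5.98 and 6.46, an RCOR1 replicate 1 median of 5.12, an RCOR1 replicate 2 peak in 8.99% and a median width of 335 bp. The 1569 with RCOR3 in 1 library lay between, with LSD1 at 6.89 and 7.98. At the ends of this range, 991 members (17.3%) carried RCOR1 and RCOR3 in both libraries, and 2582 (45%) carried RCOR1 replicate 1 and no other CoREST peak.

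Ordered by RCOR1 replicate 1 fold enrichment and divided into 5 equal bins, members had RCOR3 replicate 1 shares of 6.21, 15.7, 35.3, 63.3 and 93.4% from the lowest bin to the highest. The RCOR3 replicate 2 shares were 7.26, 15.7, 23.3, 38.4 and 71.4%. Along LSD1 the relation was not a steady one. From the lowest of 5 LSD1 bins to the highest, RCOR3 replicate 1 covered 30, 20.7, 33.4, 49.1 and 80% of members, and replicate 2 covered 22.4, 14.5, 22.4, 34.4 and 62%. The lowest LSD1 bin thus held more RCOR3 than the second in both replicates. Along region width, RCOR3 replicate 1 shares ran from 6.62 to 80.7% and those of replicate 2 from 7.4 to 61.9%. Width and fold enrichment come from the same RCOR1 peak for nearly all members, and a wider region also has more room for any peak. Their part in the RCOR3 share was not tested.

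**Figure D3:**
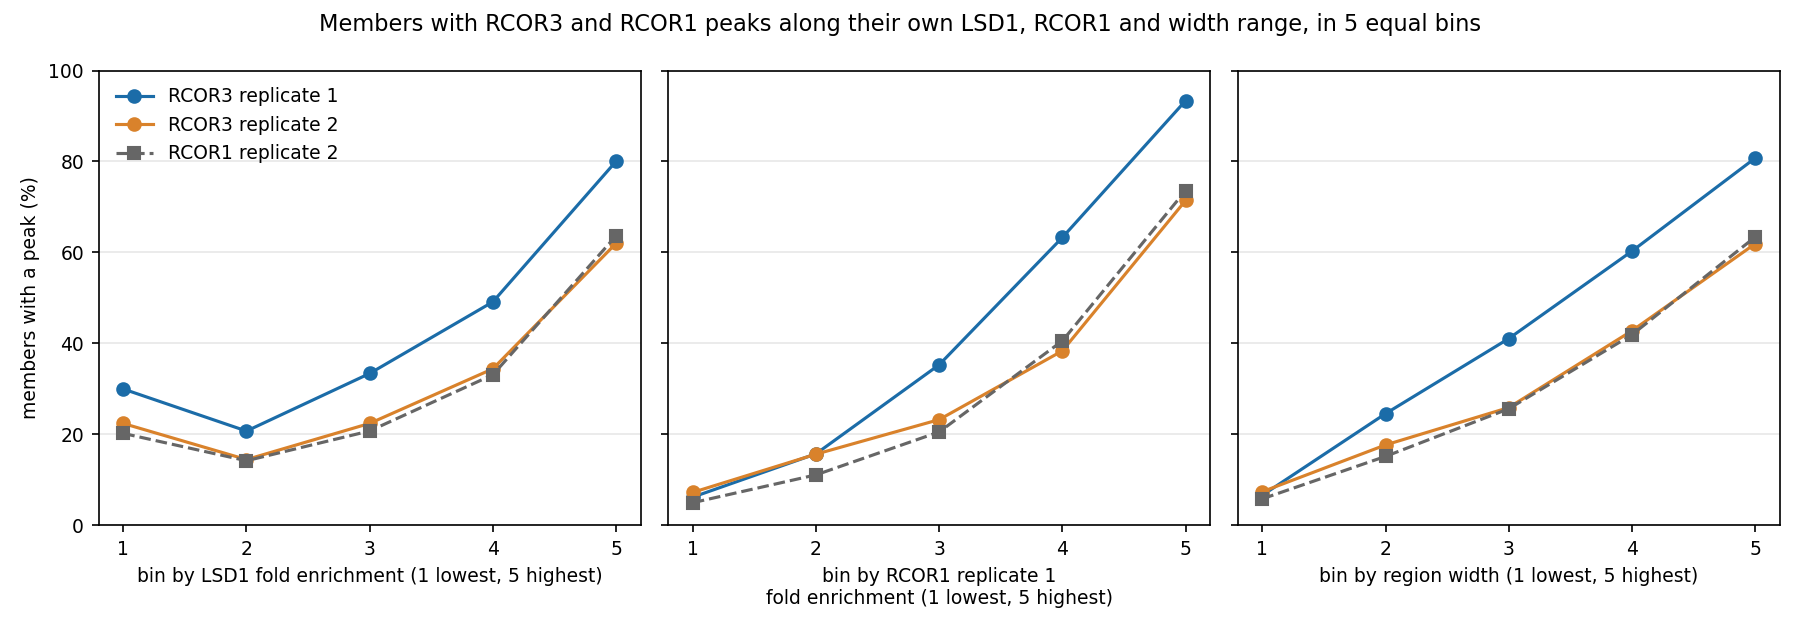
Share of members (y axis, %) with a peak of RCOR3 replicate 1, RCOR3 replicate 2 or RCOR1 replicate 2 in 5 equal bins of the members by LSD1 fold enrichment, RCOR1 replicate 1 fold enrichment and width (x axis, 1 is the lowest bin). All lines climb along RCOR1 and width, and along LSD1 they dip in the second bin before reaching 80, 62 and 63.6% in the highest.

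The classes were therefore also set side by side at like RCOR1 replicate 1 fold enrichment, in 4 ranges that each hold about as many members. Below 4.97, RCOR3 replicate 1 covered 7.39% of members, 11.1% of regions with RCOR2 and LSD1 and 3.68% of those lacking both. From 6.37 to 8.65 the shares were 51.5%, 64.8% and 31.8%. Above 8.65 they were 89.9%, 96.2% and 73.5%, the last over 49 regions. Replicate 2 gave the same order in every range, with 65.9%, 90.2% and 44.9% in the highest. At like width the order was not kept throughout. Among regions of 100 to 306 bp, RCOR3 replicate 1 covered 8.1% of members and 5.53% of the regions with RCOR2 and LSD1. Replicate 2 covered 8.44% and 7.54% of them. Among those of 306 to 456 bp the replicates differed in direction, with 31.7% of members and 28.2% of the regions with RCOR2 and LSD1 in replicate 1, and 21.9% and 25.6% in replicate 2. In the widest range replicate 1 covered 77.5% and 89.2%, and replicate 2 58.8% and 82.8%.

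Peak summits at the members lay close together. The LSD1 summits of the 2 replicates were a median of 41 bp apart. RCOR1 replicate 1 summits were a median of 48 and 43 bp from those of LSD1 replicates 1 and 2. RCOR3 summits were 56 bp (replicate 1) and 57 bp (replicate 2) from the LSD1 summit of the same number. Fold enrichments of the LSD1 replicates had a Spearman correlation of 0.695 over the 5738 members, those of RCOR3 0.371 over the 1332 members with both and those of RCOR1 0.446 over 1725. RCOR3 and LSD1 of the same number had 0.325 (n = 2447) and 0.322 (n = 1786). These are correlations across regions that share libraries and peak caller, given as a description.

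The strongest members carried RCOR3 and RCOR1 beside LSD1. Members were ranked by the lower of their 2 LSD1 percentile ranks. Of the first 15, all had peaks in both libraries of RCOR3 and RCOR1, 9 lay inside a protein-coding gene and 5 lay outside genes with no protein-coding gene end within 100 kb. The highest of all, at chr16:65656784-65658848 and 533 kb from a gene end, had LSD1 fold enrichments of 31.7 and 45.1, RCOR3 of 17.6 and 15.7 and RCOR1 of 30.1 and 16.3. Inside SPECC1L, a cytoskeletal linker, the member at chr22:24391795-24393359 had LSD1 at 31.7 and 54.4, RCOR3 at 8.5 and 9.37 and RCOR1 at 22.3 and 13.7. Members inside MED27, a Mediator subunit, and AMBRA1, an autophagy regulator, had LSD1 at 25.7 and 39 and at 25.1 and 44.7. A member inside ROBO2, a receptor for SLIT ligands on growing axons, had LSD1 at 23.5 and 30.3, RCOR3 at 9.63 and 13.2 and RCOR1 at 17.6 and 10.7. Members inside DLG2, a scaffold of the postsynaptic density, and UNC5C, a netrin receptor, had LSD1 at 21.8 and 31.9 and at 23.8 and 28.7. UNC5C had the weaker RCOR3 of this pair, at 4.74 and 5.86, against 9.88 and 10.1 at DLG2.

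A region was given the shortest protein-coding gene around its centre or else the nearest gene end within 100 kb, which names a neighbour and not a target. By this rule 2344 of 19974 genes (11.7%) had a member, 1427 of them a single one and 144 of them 5 or more, and 1333 members (23.2%) had no gene. Genes with a member were long, with a median of 101 kb against 20.8 kb for genes without. Of genes longer than 83.6 kb 32.6% had a member, and of those between 6.49 and 16.4 kb 3.45%. AUTS2, a regulator of nerve cell development, had the most members, 21 inside its 1195 kb, of which 11 had RCOR3 in at least 1 library and 4 in both. SLIT3, a secreted guidance ligand, had 19, with RCOR3 in at least 1 library at 12 and LSD1 medians of 6.52 and 8.39. ROBO2 had 12, 10 of them with RCOR3, and LSD1 medians of 9.48 and 9.03. PLXNA4, a semaphorin co-receptor, had 16, 7 of them with RCOR3, and lower LSD1 medians of 5.01 and 5.68. DAB1, the adaptor of reelin signalling, had 16, and 6 of those lay within 21.7 kb of each other. The other genes among the 10 with most members were PRKCH (12), AGBL4, ASIC2, CTNNA2 and EXOC4 (11 each).

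Members were mostly scattered. Joined over gaps of up to 12.5 kb, they formed 4937 groups, 4313 of them (75.2% of members) a single region. Groups of at least 3 held 431 members (7.51%). The largest, with 11 members in 39.2 kb at chr22:26778921-26818087, had no protein-coding gene end within 100 kb and lay by the long noncoding RNA genes MIATNB and LINC01422. Its LSD1 medians were 7.07 and 6.1, and 2 of its 11 members had RCOR3. At PLPPR4, a neuronal membrane protein of the lipid phosphatase-related family, 5 members had LSD1 medians of 9.73 and 11.2 and 3 had RCOR3.

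**Figure D4:**
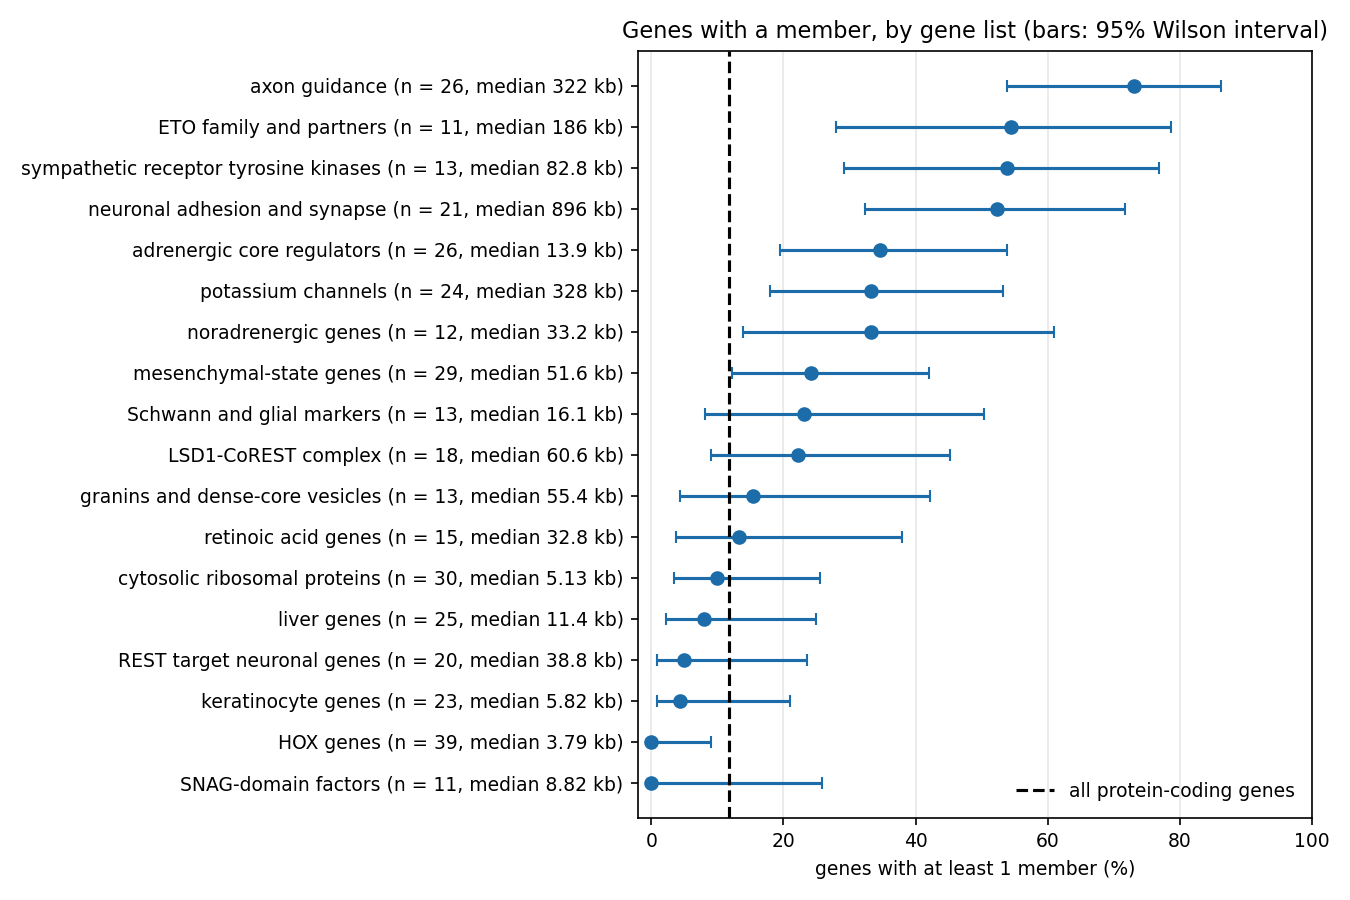
Share of the genes of each list with at least 1 member (x axis, %), with 95% Wilson intervals, the number of genes found and their median length; the dashed line marks 11.7% of all protein-coding genes. Axon guidance is highest at 73.1%, and HOX and SNAG-domain genes are at 0.

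Gene lists are given as counts beside the 11.7% of all protein-coding genes, with median gene length, since long genes have more room. Of all genes longer than 83.6 kb, 32.6% had a member. Of 26 axon guidance genes, 19 (73.1%) had 83 members in all, with a median length of 322 kb. They include ligands (SLIT2, SLIT3, SEMA3A, SEMA3C, SEMA3D, EFNA5) and receptors (ROBO1, ROBO2, UNC5B, UNC5C, EPHA5, EPHB1, NRP1, NRP2, PLXNA2, PLXNA4). The strongest EFNA5 member had LSD1 at 16.4 and 26.1 and RCOR3 at 7.52 and 8.86. Of 21 genes of neuronal adhesion and synapse 11 (52.4%, median length 896 kb) had 58 members, and of 24 potassium channel genes 8 (33.3%, 328 kb) had 23. The potassium channel share thus lay near that of long genes. At KCNJ6, an inwardly rectifying channel subunit, the strongest member had LSD1 at 13.4 and 29.9, RCOR3 at 11.6 and 11.2 and RCOR1 at 26.5 and 9.45.

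Of 26 adrenergic core regulators, the transcription factors that define the sympathetic state of such cells, 9 (34.6%) had 21 members, with a median length of 13.9 kb. KLF7, a zinc finger factor of neurite growth, had 3, and the one at chr2:207086677-207088608 inside the gene had LSD1 at 14 and 17.8, with RCOR3 at 6.58 and 6.92 and RCOR1 at 16.5 and 11.1. HAND2, a basic helix-loop-helix factor of sympathetic neurons, had 1 member, with LSD1 at 7.07 and 4.79 and RCOR3 at 4.08 in replicate 2 alone. The LIM-homeodomain factor ISL1 had 1, with LSD1 at 6.52 and 6.13 and RCOR3 at 3.2 in replicate 1 alone. DACH1, MEIS2 and PBX3 had 2 members each and RCOR3 at none. Of the 3 EYA1 members, 1 had RCOR3 in both libraries, at 5.52 and 5.44.

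**Figure D5:**
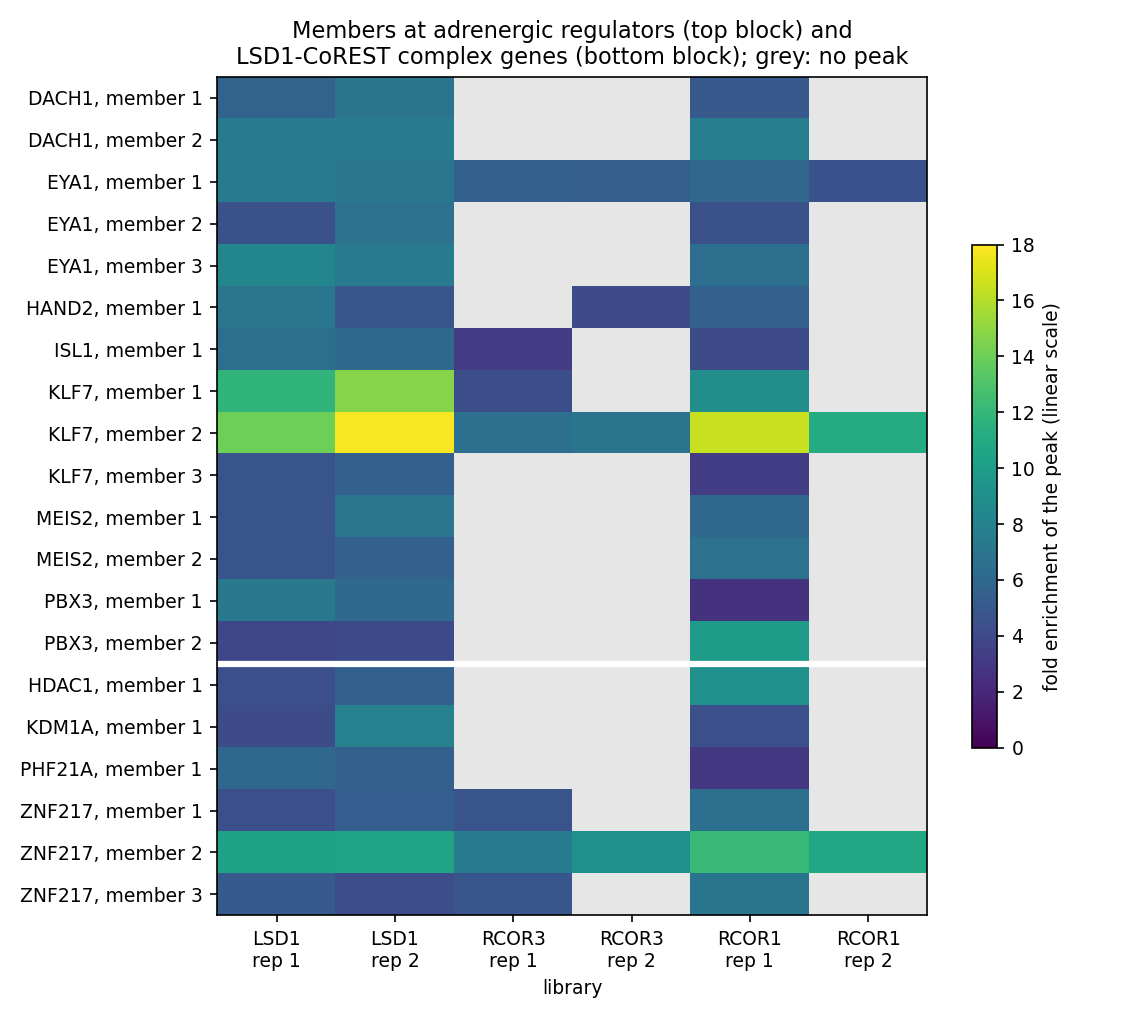
Fold enrichment of the overlapping peak (colour, authors' value) at members of 7 adrenergic regulators and of the LSD1-CoREST complex genes (rows, in order of position) in each library of LSD1, RCOR3 and RCOR1 (columns); grey marks no peak. RCOR3 in both libraries stands at 1 member each of EYA1, KLF7 and ZNF217.

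Of the 18 genes of the LSD1-CoREST complex itself, 4 (22.2%, median length 60.6 kb) had a member. KDM1A, which encodes LSD1, had 1 inside the gene with LSD1 at 4.1 and 7.83 and no RCOR3. HDAC1 and PHF21A, the deacetylase and the histone reader of the complex, had 1 each, also without RCOR3. ZNF217, a zinc finger partner of the complex, had 3, and the strongest had LSD1 at 10.4 and 10.5, RCOR3 at 7.52 and 9.02 and RCOR1 at 12.2 and 10.8. None of the 11 SNAG-domain genes (median length 8.82 kb) had a member. Of all genes between 6.49 and 16.4 kb long 3.45% had one, so none among so few short genes says little. Of 20 REST target neuronal genes (38.8 kb) 1 had a member, SNAP25, a fusion protein of synaptic vesicles, with LSD1 at 4.43 and 7.21.

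Of 13 genes listed as sympathetic receptor kinases, a list that also holds the neurotrophin receptor NGFR, 7 (53.8%, median length 82.8 kb) had 22 members. ALK, the receptor kinase mutated in familial neuroblastoma, had 10, the strongest with LSD1 at 10.4 and 11.6, RCOR3 at 10.1 and 9.36 and RCOR1 at 15.6 and 6.89. Of 12 noradrenergic genes, 4 (33.3%, 33.2 kb) had 9 members. NPY, which encodes the cotransmitter neuropeptide Y, had 5, the strongest with LSD1 at 12.6 and 15.5 and RCOR3 at 3.4 and 5.95. DDC, the enzyme that makes dopamine, had a member 2.13 kb from its end with LSD1 at 11.1 and 8.92 and RCOR3 at 8.68 in replicate 2 alone. Of 11 genes of the ETO family (RUNX1T1 among them) and partners, 6 (54.5%, 186 kb) had 10 members. RUNX1T1, the target of the shRNA that the LSD1 cells carried, had 2, the stronger with LSD1 at 9.61 and 7.42 and no RCOR3. Of 29 mesenchymal-state genes 7 (24.1%, 51.6 kb) had a member, and of 13 Schwann and glial markers 3 (23.1%, 16.1 kb). In other lists, members stood by 3 of 30 ribosomal protein genes (10%, median length 5.13 kb) and 2 of 25 liver genes (8%, 11.4 kb). They also stood by 1 of 23 genes of keratinocytes (4.35%, 5.82 kb) and by none of the 39 HOX genes (3.79 kb). These shares lay close to or below that of all genes, but these lists hold short genes. Of all genes shorter than 6.49 kb 3.71% had a member, and of those between 6.49 and 16.4 kb 3.45%. The part of gene length was not tested.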

How the data were processed

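The submitters' processing notes name BWA 0.7.17, MACS2 and deepTools, and the builds GRCh38 and hg38. The deposited peak lists hold, for each library, positions, a fold enrichment over background (a ratio) and the −log10 of the q-value, as the authors' caller wrote them. The control library, duplicate handling and the making of the RCOR2-low list are steps not given in the sources used here. Read depth is unknown. Replicate numbers follow the labels, although the names of single peaks differ from them in both FLAG groups and in replicate 2 of RCOR1 and of RCOR3. The labels do not say whether replicates were separate cultures, so p-values may measure technical spread.

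Chromosomes 1 to 22 and X were used, an overlap was at least 1 bp, and a region took the highest fold enrichment among its overlapping peaks. Gene ends came from a RefSeq table (GRCh38.p14) without strand. Named are the 15 members highest in LSD1 rank, the 10 genes with most members, genes with a member from 3 lists (adrenergic, SNAG-domain, LSD1-CoREST) and up to 3 genes from each of the other lists by LSD1 rank. The members, motifs and the 18 gene lists were chosen with earlier results of these data known. Some genes that this rule names are not reported here. Promoter windows and their sequences came from RefSeq. Overlap, distance and assignment code was tested on simulated data. Python 3.11.15, numpy 2.4.6 and pandas 2.3.3 were used. Alternatives covered overlap, gene-end distance, peak strength, peak number, region size, the MYCN locus, uninduced peaks and each library left out.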

Additional observations from a re-analysis of the deposited data

How the results depend on the processing

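All 109 values recomputed under the 17 alternatives kept their direction or stayed within 1.5 times of the reported count. Where an alternative changed the peaks, distances or libraries that the rule uses, the classes were redrawn and hold partly other regions. The number of members lay between 4581 (peaks above the median fold enrichment) and 6926 (without LSD1 replicate 1), and genes with a member between 1934 and 2724. With single libraries left out, the RCOR3 share minus the uninduced FLAG share ranged from 30.92 to 42.44 percentage points. The difference in RCOR3 share from regions with RCOR2 and LSD1 ranged from -35.7 to -29.75, and that from regions lacking both from 20.54 to 31.74. With libraries paired by replicate number (replicate block), RCOR3 minus uninduced FLAG was 36.68 with an exact sign-flip permutation p of 0.5. The numbers are not known to pair cultures. The uninduced FLAG difference from regions with RCOR2 and LSD1 moved most, to -21.7 percentage points with equal numbers of top peaks (10253 a library) and between -8.3 and -0.88 with either uninduced library left out. Its direction is partly set by the choice of the regions. The log2 ratio of LSD1 medians to those of regions with RCOR2 and LSD1, -0.21 as reported, was -0.46 among peaks above the median fold enrichment and -0.12 without LSD1 replicate 2, and with equal numbers of top peaks the RCOR3 difference from those regions was -50.1. With 2 libraries a group no test could pass 0.05, so unchanged p-values say nothing about stability. Absence of a peak means none above the caller's limit at an unknown depth.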

Other observations

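The 3 annotated microRNA hairpins that lay inside members were those of MIR4681, MIR4487 and MIR4289. Mature sequences are in the RefSeq table for a pair of them, shown with the seed in capitals because they are the other sequence inside members that the tables used here hold.
hsa-miR-4681: aACGGGAAugcaggcuguaucu
hsa-miR-4289: gCAUUGUGcagggcuauca
The MIR4487 member had the strongest CoREST peaks of the set, with LSD1 at 3.75 and 7.98, RCOR3 at 9.04 and 5.91 and RCOR1 at 16.4 and 6.83. The MIR4681 member had LSD1 at 4.74 and 5.98 and RCOR3 at 4.75 and 4.82. The MIR4289 member, 161.2 kb from a protein-coding gene end, had LSD1 at 6.61 and 7.74 and no RCOR3 peak. Whether these microRNAs are expressed in Kelly cells was not measured.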
